A study of Mus musculus with 12 samples.

Results

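The binding sites of MD(ND2bHLH)WC, called WC here, were compared with those of native NeuroD2 in mouse P19 cells, an embryonal carcinoma line, by chromatin immunoprecipitation and sequencing (ChIP-seq). All 27045 sites of the deposited WC list and all 31458 sites of the deposited NeuroD2 list were taken, of 120275 sites in the 5 lists of the series. MD(ND2bHLH) is MyoD in which the bHLH domain was exchanged for that of NeuroD2, and WC is a mutant of this chimera whose letters the labels do not explain. A site counted as held by the other list where the intervals shared at least 1 base. Each group has 2 libraries and 1 list, and nothing in the labels names separate cultures, so no spread between replicates and no test between the groups can be given. The 95% intervals below are exact Clopper-Pearson intervals on the number of sites and cover counting error only.

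The 4 libraries behind these lists came from P19 cells infected with WC or with NeuroD2 and later moved to a neuronal medium. Both proteins were thus supplied from outside the cell's own genes. All 4 libraries share the other recorded settings: polybrene at 8 µg/ml, 24 h for the medium change and 48 h for the neuronal medium. Fixation was in 1% formaldehyde for 11 min. WC was precipitated with MyoD antibodies 6196 and 6975, and NeuroD2 with NeuroD2 antibodies 1165 and 1240. The antibody and the protein therefore cannot be told apart in any comparison of both lists. Lists of MyoD, of the chimera and of MD(ND2bHLH)WCS, called WCS, all made with the WC antibodies, were used for reference. Libraries of untransduced cells were labelled as negative controls. The 5 lists of the series include none for these cells, and the shares therefore stand without a background. The purpose of the series, as its title gives it, is to ask whether the choice of binding sites sets the lineage that MyoD directs.

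Basic helix-loop-helix proteins bind DNA as dimers, usually with a broadly expressed E protein, and recognise short E-box motifs. MyoD drives the skeletal muscle programme and NeuroD2 drives neuronal differentiation. The basic region and the helices of the domain set dimer partner and motif, while parts outside it contact cofactors. MyoD is also known to act with the homeodomain proteins Pbx and Meis at some of its targets.

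WC held most of the NeuroD2 sites, and NeuroD2 held a larger part of the WC sites. Of the 27045 WC sites 18225, or 67.4%, were in the NeuroD2 list (66.8 to 67.9%). Of the 31458 NeuroD2 sites 18352, or 58.3%, were in the WC list (57.8 to 58.9%). This left 8820 WC sites outside the NeuroD2 list and 13106 NeuroD2 sites outside the WC list. The gap between both shares goes with list length: with the NeuroD2 list shortened by value to 27045 sites, the shares were 62.9% of WC and 63.2% of NeuroD2 sites. Counted in bases, 6.57 Mb lay in both lists, which is 63.5% of the 10.3 Mb of WC and 54.5% of the 12.1 Mb of NeuroD2.

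Where the lists met, they marked nearly the same place. The overlaps formed 18477 pairs, and the centres of the paired sites lay a median of 33 bp apart, with 25% of pairs within 16 bp and 90% within 93.5 bp. In 9930 pairs, or 53.7%, the shorter site lay wholly inside the longer one, and only 79 pairs overlapped by less than 50% of the shorter site. Median width was 380 bp for the WC and 380 bp for the NeuroD2 member of a pair, and the WC site was the wider in 48.5% of pairs. Pairing was almost always one to one: 18022 WC sites had a single NeuroD2 partner and 18227 NeuroD2 sites a single WC partner. The exceptions were 203 WC sites with several partners, up to 7, and 125 NeuroD2 sites with 2.

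How often a site was held rose with its value. Each deposited site has a value of 5 or more whose unit no source names, so it served for ranking within its own list. The 10 bins of equal size run from bin 1 (lowest) to bin 10 (highest). Where values of different lists are printed side by side below, a common scale is not known. The share of WC sites in the NeuroD2 list was 39.4% in bin 1 (37.5 to 41.2%), 65.5% in bin 5 and 94.5% in bin 10 (93.6 to 95.4%). The share of NeuroD2 sites in the WC list was 27.2% in bin 1 (25.7 to 28.8%), 51.1% in bin 5 and 93.8% in bin 10 (92.9 to 94.6%). It rose from each bin to the next in both lists. Bin 10 begins at a value of 39.7 in the WC list and 40.2 in the NeuroD2 list. Sites outside the other list were accordingly of low value, with a median of 7.58 for WC sites outside NeuroD2 and 7.53 for NeuroD2 sites outside WC, against 13.4 for WC sites and 15.2 for NeuroD2 sites that were held.

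**Figure D1:**
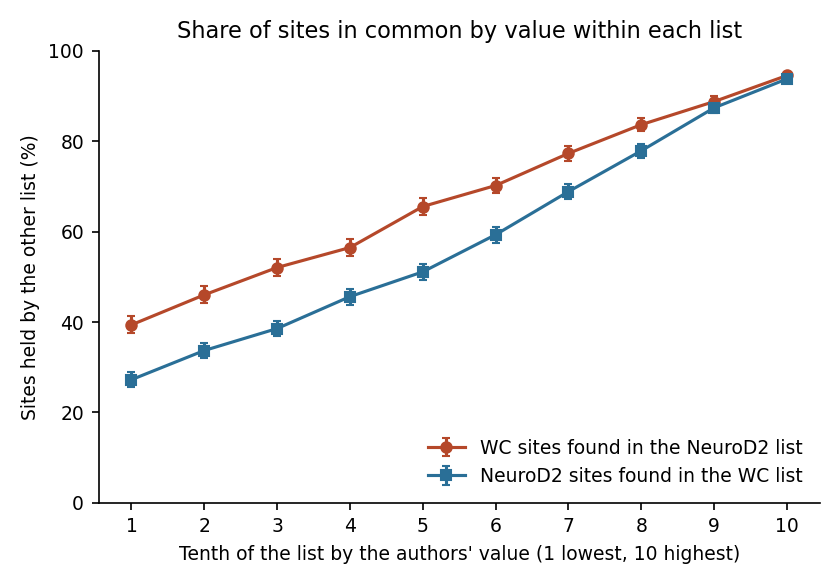
Percentage of sites held by the other list (vertical axis) in 10 bins of the authors' value within each list (horizontal axis), for WC sites and NeuroD2 sites, with exact 95% Clopper-Pearson intervals. Both curves climb at every step, to 94.5% for WC and 93.8% for NeuroD2 in bin 10, and WC lies further above NeuroD2 in bins 1 to 6 than in bins 7 to 10.

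The 500 NeuroD2 sites of the highest values, among them all those of infinite value, were held less often than bin 10 as a whole. Of the 500 WC sites with the highest values, 96.8% were in the NeuroD2 list, and of the leading 5000 it was 92.0%. Of the 500 NeuroD2 sites with the highest values, 88.4% were in the WC list, against 93.8% of bin 10 as a whole and 87.4% of bin 9. Of the leading 2000 NeuroD2 sites it was 94.4%. The NeuroD2 list holds 34 sites with an infinite value, and WC held 4 of them. The other 30 were 355 to 3501 bp wide, and 29 of them were in no other list of the series. Of the 8 WC sites with an infinite value, NeuroD2 held 6.

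Being listed in common did not mean ranking alike. Of the leading 1000 sites of each list, 464 WC sites overlapped one of the leading 1000 NeuroD2 sites, or 46.4%, and 465 NeuroD2 sites the converse. Over the 17799 pairs matched one to one, Spearman's rho between the values of both lists was 0.558. This is a description across sites of 1 list each, which share the cells' chromatin and the depth of their own libraries. Of 2452 pairs whose WC site ranked in the top 10% of its list, 59.3% had a NeuroD2 site in the top 10% as well, and 5.71% had one in the lower 50%. Of 2856 pairs with a NeuroD2 site in the top 10%, 50.9% had a WC site there and 6.79% one in the lower 50%.

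**Figure D2:**
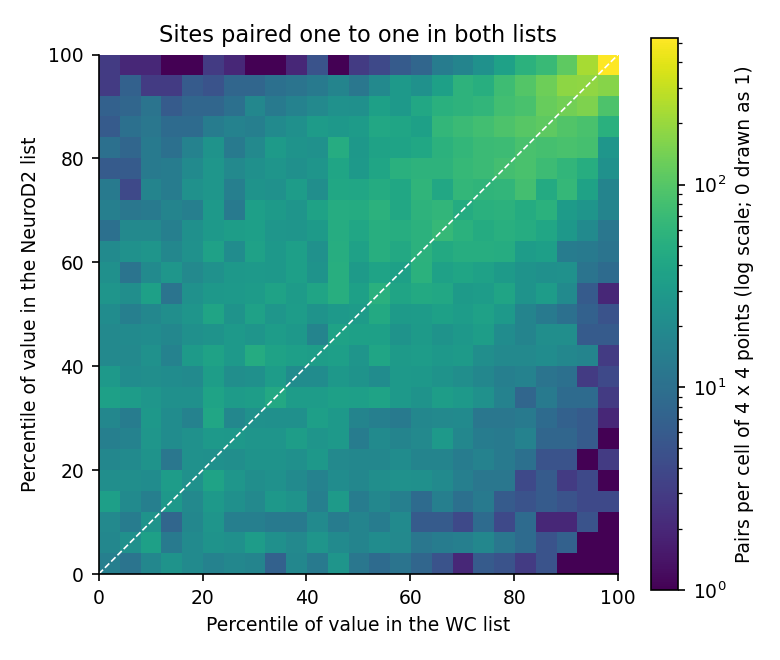
Percentile of the authors' value in the WC list (horizontal axis) and in the NeuroD2 list (vertical axis) for the 17799 sites paired one to one. Colour gives the number of pairs per cell on a log scale, and the broken line marks equal percentiles. Pairs crowd in the upper right corner, up to 525 in a cell, and spread widely at middle and low values.

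Pairs whose WC site was in a reference list ranked higher in WC than in NeuroD2 more often than the remaining pairs did. The WC percentile was above the NeuroD2 percentile in 53.4% of the 5123 pairs whose WC site was in the MyoD list, and in 40.8% of the 12676 pairs outside it. The median difference, WC minus NeuroD2, was 0.94 percentile points in pairs with MyoD and −4.49 in pairs without. Over all one-to-one pairs 44.4% ranked higher in WC. Split into 5 groups by the mean of both percentiles, the share was 52.0 to 56.7% in pairs with MyoD and 37.2 to 45.1% in pairs without, and it was higher with MyoD in 5 of 5 groups. For the chimera the shares were 56.9% of 6562 pairs in its list and 37.1% of 11237 pairs outside it. For WCS they were 46.1% of 14652 pairs and 36.6% of 3147. Such pairs had higher percentiles in the NeuroD2 list as well. The NeuroD2 medians were 68.4 with MyoD and 64.4 without, 73.7 with the chimera and 60.7 without, and 70.0 with WCS and 42.3 without. MyoD, the chimera, WCS and WC share their antibodies, and the part this plays was not tested.

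The 8820 WC sites outside the NeuroD2 list had lower shares in all 3 reference lists than WC sites as a whole, most of all in the WCS list. WCS held 3402 of them, or 38.6% (37.6 to 39.6%), against 68.1% of all WC sites and 82.4% of the WC sites that NeuroD2 held. The chimera held 2118, or 24.0% (23.1 to 24.9%), against 32.8% of all WC sites. MyoD held 1914, or 21.7% (20.8 to 22.6%), against 26.5% of all WC sites. In all, 3795 of these sites, or 43.0%, were in none of the 3 reference lists, against 13.1% of WC sites that NeuroD2 held. The 3795 had a median value of 6.68. A further 2175 were in the WCS list alone, 549 in the chimera list alone and 409 in the MyoD list alone.

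Compared at equal value, MyoD and the chimera held WC sites outside NeuroD2 about as often as those inside. Weighted to the value bins of the sites outside, the sites inside NeuroD2 would have been in the MyoD list at 22.6% and in the chimera list at 22.6%, close to the observed 21.7% and 24.0%. For the chimera the outside sites had the higher share in 9 of 10 bins, by at most 6.09 percentage points. For MyoD they had the lower share in 7 of 10, and the largest gap, outside minus inside, was −5.81 points. WCS was the exception, with a weighted inside share of 68.3% against 38.6% outside, and a lower outside share in 10 of 10 bins.

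Almost every high-value WC site outside NeuroD2 was in another list. Of the 148 in bin 10, the chimera held 121, or 81.8%, WCS 98, or 66.2%, and MyoD 61, or 41.2%. Only 5 of the 148 were in none of these lists. In bin 1 it was 981 of 1640. Of the WC sites in bin 10 that NeuroD2 held, the chimera held 78.2%, WCS 98.8% and MyoD 47.0%. Beside these, the share outside NeuroD2 was lower in the WCS and MyoD lists, by the wider margin in WCS, and higher in the chimera list.

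The 13106 NeuroD2 sites outside the WC list were mostly held by no other list. WCS held 1568 of them, or 12.0% (11.4 to 12.5%), against 53% of all NeuroD2 sites and 82.3% of those that WC held. The chimera held 707, or 5.39% (5.01 to 5.80%), against 23.7% of all NeuroD2 sites. MyoD held 1165, or 8.89% (8.41 to 9.39%), against 20.4% of all NeuroD2 sites. This left 10412, or 79.4%, in none of the reference lists. Among the WC sites outside NeuroD2 that share was 43.0%.

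**Figure D3:**
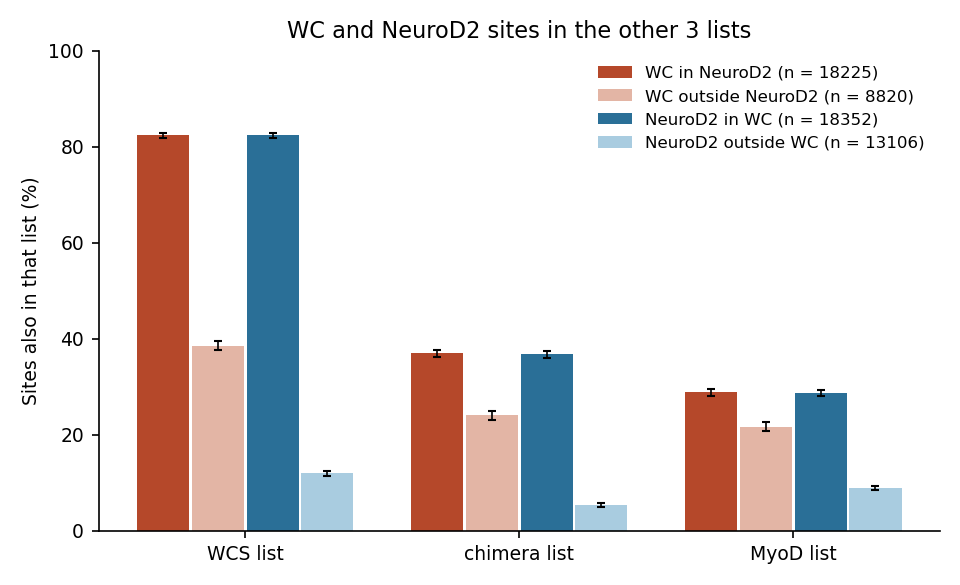
Percentage of sites (vertical axis) that were also in the WCS, chimera or MyoD list, for WC sites inside and outside the NeuroD2 list and NeuroD2 sites inside and outside the WC list, with exact 95% Clopper-Pearson intervals. The lowest bar for each list is that of the NeuroD2 sites outside WC, at 12.0%, 5.39% and 8.89%.

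At every value these NeuroD2 sites had lower shares in the other lists than those that WC held. In the WCS list the share was 9.13% in bin 1, 13.8% in bin 5, 18.5% in bin 8 and 9.18% in bin 10. Among NeuroD2 sites that WC held it was 58.6% in bin 1 and 96.8% in bin 10. In bin 10, 196 NeuroD2 sites were outside WC and 166 of them were in no other list. WCS held 18 of the 196, the chimera 10 and MyoD 6. The share in the MyoD list was 9.52% in bin 1 and 3.06% in bin 10, whereas among NeuroD2 sites that WC held it was 25.7% in bin 1 and 35.9% in bin 10. Of the 196 sites in bin 10, 24 lay on chromosome X, where the MyoD and chimera lists have 0 sites, and 61 in dense windows. Of the 2289 in bin 1, 40 lay on X and 217 in dense windows. The 196 also include the 30 sites of infinite value, 29 of them in no other list. The part these sites play in the low shares of bin 10 was not tested. At equal value the sites outside WC had the lower share in all 3 reference lists and in 10 of 10 bins each. Weighted to their bins, the sites inside WC would have been in the MyoD list at 26.7%, against the observed 8.89%.

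Both mutants together covered little more of the NeuroD2 list than WC alone. WC or WCS held 19920 NeuroD2 sites, or 63.3% (62.8 to 63.9%), and 11538 were in neither. Of the 16680 NeuroD2 sites in the WCS list, WC held 90.6%, and of the 14778 outside it WC held 21.9%. Seen from WC, NeuroD2 held 81.5% of the 18413 WC sites that WCS shared and 37.2% of the 8632 that it did not. WCS taken by itself held 53.0% of the NeuroD2 sites, and NeuroD2 held 73.9% of the WCS sites. The chimera without the mutations held 23.7%, from a list of 14375 sites that has none on chromosome X.

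The sites that led both lists were, as WC intervals in mm9, chr6:116620173-116621636 and chr1:172585369-172586446, at an infinite value in both. MyoD and the chimera held both sites too, at finite values of 188.2 and 117.8 on chromosome 6 and of 125.3 and 117.1 on chromosome 1. Next in the joint ranking came chr17:29816984-29817702, with 249.6 in WC and an infinite value in NeuroD2. It was followed by chr4:139146170-139146884, with 270.9 in WC and 303.8 in NeuroD2, and by chr17:83514299-83514975, with 263.3 in WC and 282.4 in NeuroD2. WCS and the chimera held all 5 sites, while MyoD lacked both on chromosome 17. No genome or gene annotation of mm9 was used, so neither the sequence of a site nor the gene at it is given.

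Among the leading WC sites that NeuroD2 lacked, some were in the WCS list alone and others were chimera sites. The 2 with an infinite value were chr9:3003308-3003690 and chrX:166649918-166650296, and of the reference lists WCS alone held them, at an infinite value. The site on chromosome 9 lay in a window of 100 kb that also had 16 infinite NeuroD2 sites outside WC. The site chr1:35867970-35868599 had 184.9 in WC, 63.8 in the chimera and 37.3 in WCS. The site chr4:134150634-134151009 had 180.1 in WC and 163.1 in WCS and was in no other list. The site chr11:64357635-64358160 had 164.4 in WC, 89.5 in the chimera and 14.6 in WCS. MyoD held none of the 4 on autosomes, and the lists of MyoD and the chimera have 0 sites on chromosome X. Leaving out dense windows, those of 100 kb where some list has at least 10 sites, the next were chr17:7501105-7501907, with 153.3 in WC and 23.6 in MyoD, and chr15:35996353-35996875, with 114.6 in WC and 5.83 in MyoD. The chimera and WCS held both of these as well.

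The leading NeuroD2 sites that WC lacked were in no other list. They tie at an infinite value and are ordered by width, so the widest are named here: chr9:3024474-3027974, chr9:3021932-3023919, chr15:74915805-74917630, chr9:2999852-3001613 and chr18:3005119-3006530. Leaving out dense windows added chr2:98506245-98507643, chr2:98502240-98503300 and chr12:75904745-75905643. Chromosome 9 held 18 of the 34 infinite NeuroD2 sites, and WC held none of those. Of these, 16 lay in the same window of 100 kb as the infinite WC site on chromosome 9 that NeuroD2 lacked. Both lists thus had infinite sites outside the other in this window. Whether reads map to a single place at these sites was not tested.

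In several pairs the site had a high value in one list and a value near the lowest in the other. The site chr11:102236424-102236864 had 70.2 in WC and 5.03 in NeuroD2. It also had a high value in the lists of MyoD, with 153.7, and of the chimera, with 119.4. The other 2 pairs that ranked furthest above NeuroD2 in WC were chr5:15183566-15187736, with 115.9 in WC and 5.07 in NeuroD2, and chr8:20031979-20033716, with 65.7 in WC and 5.07 in NeuroD2. MyoD held neither of these 2. The chimera held the site on chromosome 5, at 9.24, but not the site on chromosome 8. All 3 sites that ranked higher in WC lay in dense windows, and their paired NeuroD2 sites were shorter. The widths were 205 bp in NeuroD2 against 441 bp in WC on chromosome 11, and 214 against 4171 bp on chromosome 5. On chromosome 8 they were 182 against 1738 bp. The NeuroD2 value is that of the 1 paired site and not of the whole WC interval. In the opposite direction, chr2:149563676-149563904 had 5.04 in WC and 69.2 in NeuroD2. The site chr10:74562965-74563234 had 5.25 in WC and 74.2 in NeuroD2, and chr11:71880822-71881204 had 5.25 in WC and 72.2 in NeuroD2. The NeuroD2 members of these 3 pairs were the wider, at 431, 598 and 838 bp against 229, 270 and 383 bp. MyoD and the chimera held none of the 3 sites that ranked higher in NeuroD2. Of all WC sites that NeuroD2 held, MyoD held 28.8% and the chimera 37.0%, so 3 sites show no difference from these shares.

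Chromosome X had the lowest share in both directions. The counting interval on X overlapped those of chromosomes 10 and 14 for WC sites and no autosome's for NeuroD2 sites. NeuroD2 held 57.3% of the 403 WC sites on X (52.3 to 62.2%), against 59.2 to 70.9% over the 19 autosomes. WC held 41.8% of the 570 NeuroD2 sites on X (37.7 to 45.9%), against 53.2 to 62.4% over the autosomes. Median values on X, 11.1 in WC and 11.0 in NeuroD2, were not below those of the whole lists, 10.5 each. The other chromosome of lowest share was 14 for WC sites, with 59.2% (56.0 to 62.4%), and 13 for NeuroD2 sites, with 53.2% (50.2 to 56.1%). The highest shares were 70.9% on chromosome 19 and 70.4% on chromosome 5 for WC sites, and 62.4% on chromosome 8 and 62.3% on chromosome 5 for NeuroD2 sites. Without the dense windows the shares were 53.5% of WC and 45.1% of NeuroD2 sites on X, 60.8% of WC sites on chromosome 14 and 53.0% of NeuroD2 sites on chromosome 13.

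**Figure D4:**
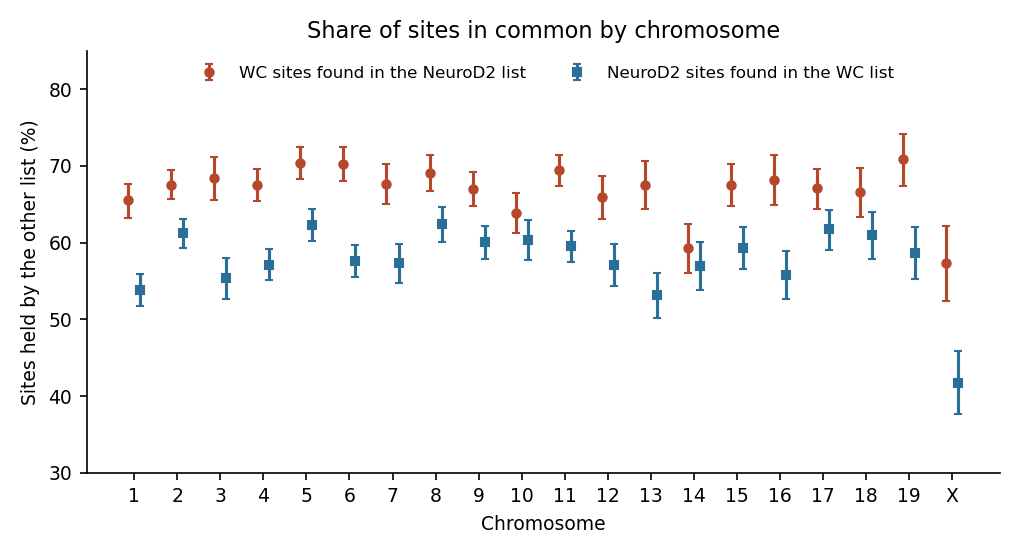
Percentage of sites held by the other list (vertical axis, from 30 to 85%) for each chromosome (horizontal axis), for WC and NeuroD2 sites, with exact 95% Clopper-Pearson intervals. Chromosome X has the lowest value of both series, 57.3% for WC and 41.8% for NeuroD2.

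In windows of 100 kb most differences in the number of sites were small, and a few clusters stood apart. Of the 13730 windows with a site of either list, 3871 had more WC sites, 5897 more NeuroD2 sites and 3962 equal numbers. Only WC had sites in 1688 windows, and only NeuroD2 in 2335. In 78.4% of windows the lists differed by at most 1 site, a measure that includes windows where one list has a single site and the other none. Spearman's rho across these windows was 0.597, as a description. WC had the largest surplus at chr10:77200001-77300000, with 17 WC and 4 NeuroD2 sites, where WCS had 18, the chimera 15 and MyoD 11. Adjoining windows on chromosome 14 followed, with 13 WC and 1 NeuroD2 sites from 44000001 and 20 WC and 8 NeuroD2 sites from 44100001. There WCS had 15 and 16 sites, and the chimera and MyoD at most 2. The surplus was thus shared with WCS at all 3 windows and with the chimera and MyoD at the first.

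The surplus of NeuroD2 was larger and in 2 of 3 windows its own. The window chr1:90100001-90200000 held 1 WC and 62 NeuroD2 sites, and none of them overlapped. These NeuroD2 sites covered 42.2 kb of the window with low values, a median of 6.26 and at most 13.9, and WCS had 0 sites there, the chimera 5 and MyoD 2. The window chr1:173400001-173500000 held 3 WC and 38 NeuroD2 sites, whose values reached 81.4 in WC and 21.7 in NeuroD2. The window chr8:19900001-20000000 held 42 WC and 74 NeuroD2 sites, but 36 of the WC and 70 of the NeuroD2 sites overlapped, and the WC sites there covered more bases, 64.0 kb against 53.9 kb. Most sites of this last window were thus held by both lists.

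**Figure D5:**
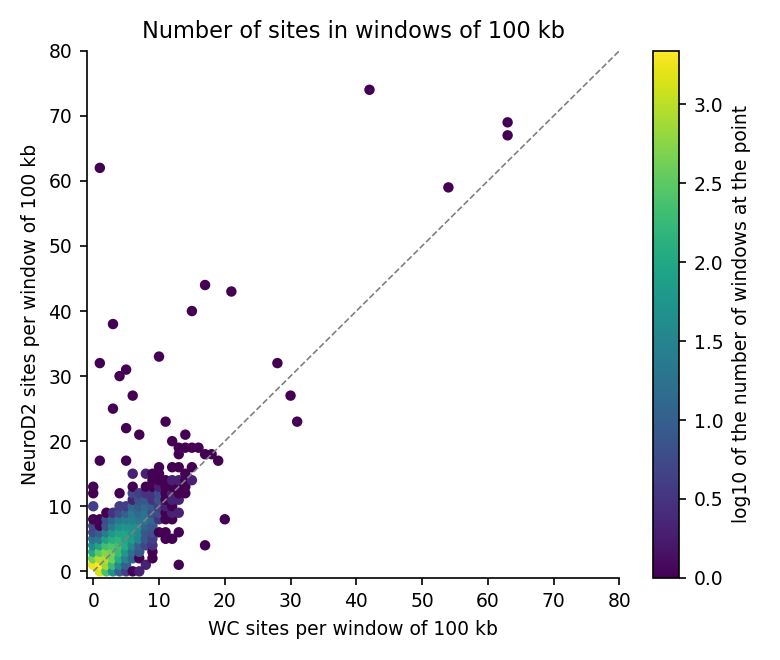
WC sites (horizontal axis) and NeuroD2 sites (vertical axis) per window of 100 kb, where each point is a pair of numbers and its colour the log10 of the windows that have it. The broken line marks equal numbers. The windows with 62, 38 and 74 NeuroD2 sites lie far above the line, and the WC windows below it reach a surplus of 13.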

How the data were processed

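ChIP-seq sites of 5 transduced P19 groups (2 libraries and 1 list each) were analysed. The submitters' processing notes name BWA 0.7.5, CASAVA 1.8.2 and the build mm9. The peak caller with its threshold, control and filters is not given in the sources used here, nor is any pooling of libraries. The value of each site in the authors' deposited lists is treated as a score, since no header names its unit. Starts were converted to 1-based positions. With the depth unknown, a longer list does not mean stronger binding.

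Lists were compared by overlap of at least 1 base. Windows were 100 kb, assigned by site centre, and dense windows hold 10 or more sites of any list (287 windows). Ties in value were ordered by width. Sites were named by rank in their class, by the difference of rank percentiles and by surplus per window. From each class the leading 5 are named, those without dense windows again (in part), and 3 pairs or windows per direction. The comparison and the naming rule were chosen with earlier results of these data known. The overlap code was tested on 3 simulated lists of 20000 sites and put 0 in the wrong class. Alternatives covered the overlap rule, value, length, X, joining, dense windows and width. Calculations ran in Python 3.11.15 with scipy 1.17.1, pandas 2.3.3 and numpy 2.4.6, and figures in matplotlib 3.10.9. Sequences and genes at the sites were not analysed here.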

Additional observations from a re-analysis of the deposited data

How the results depend on the processing

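In all, 7 quantities were recomputed under 8 other settings, 1 of them chosen after seeing the data, and 27 of 54 values stayed within the counting interval (for the Jaccard index, the shared bases as a percentage of all bases covered, within rounding of 41.5%). Requiring 50% of the shorter site moved none. In the order WC sites in NeuroD2, NeuroD2 sites in WC, WC sites outside NeuroD2 in WCS, NeuroD2 sites outside WC in WCS, and the same for MyoD, centres within 100 bases gave 62.3%, 53.6%, 40.7%, 13.2%, 17.9% and 7.25%. Keeping the upper 50% of every list by value gave 65.9%, 57.1%, 42.2%, 9.98%, 19.6% and 7.39%, and a Jaccard index of 40.3%. With equal lengths the first 4 were 62.9%, 63.2%, 41.3% and 12.8%, and the index 41.8%. Autosomes alone gave an index of 41.7%. Joining sites within 500 bases gave 59.5% of NeuroD2 sites in WC. Without dense windows, 66.6% of WC sites were in NeuroD2, 37.2% of those outside it in WCS, and the index was 41.3%. Without sites over 1000 bases or of infinite value (the later choice), 66.7% of WC and 57.5% of NeuroD2 sites were held, 13.4% of NeuroD2 sites outside WC were in WCS, and the index was 40.5%. The cause of these shifts was not tested, apart from equal length, which removes the low NeuroD2 sites. In all 8 settings WCS and MyoD held a larger share of the WC sites outside NeuroD2 than of the NeuroD2 sites outside WC. No paired analysis was possible because each group has 1 list, and for the same reason no replicate could be left out. Unknown depth limits what absence from a list means.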

Other observations

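Sites absent from the other list seldom lay within 200 bp of one of its sites. Signal too weak to be listed cannot be seen from the lists. WC sites outside NeuroD2 lay a median of 15.9 kb from the nearest NeuroD2 site, and 208 of 8820, or 2.36%, lay within 200 bp of one. NeuroD2 sites outside WC lay a median of 16.0 kb from the nearest WC site, and 311 of 13106, or 2.37%, lay within 200 bp. Within 10 kb the shares were 39.2% for WC and 39.7% for NeuroD2. Overlapping sites are left out of both classes by definition, and no expected share was computed. For scale, the median distance to the nearest other site of the same list was 11.7 kb in WC and 9.09 kb in NeuroD2. Such a neighbour lay within 10 kb for 46.4% of all WC and 51.9% of all NeuroD2 sites. Of the WC sites outside NeuroD2, 50.1% were the only such site in their window of 100 kb, and of the NeuroD2 sites outside WC 37.4% were. Windows with 10 or more of them numbered 11 for WC, with 151 sites, and 28 for NeuroD2, with 543 sites. The classes differ in size, 8820 against 13106 sites, which by itself changes both measures. No difference in clustering is therefore read from them.

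Wide sites behaved differently in the 2 lists. NeuroD2 held 91.6% of the 3672 WC sites of 501 to 1000 bp and 96.7% of the 241 over 1000 bp (93.6 to 98.6%). WC held 84.1% of the 4649 NeuroD2 sites of 501 to 1000 bp and 63.7% of the 331 over 1000 bp (58.3 to 68.9%). Of the 120 wide NeuroD2 sites outside WC, 89 lay in dense windows. Outside dense windows WC held 79.5% of the 151 wide NeuroD2 sites (72.1 to 85.6%), and NeuroD2 held 95.6% of 113 wide WC sites.

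In the WCS list, sites that overlapped WC sites outside NeuroD2 ranked at a median percentile of 36.7, and those that overlapped NeuroD2 sites outside WC at 20.4, against 63.9 for those that overlapped sites of both. In the MyoD list the medians were 62.6 for WC sites outside NeuroD2, 53.3 for NeuroD2 sites outside WC and 68.1 for WC sites that NeuroD2 held.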
